A study of Mus musculus with 8 samples.

Results

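The regions described here are places at the ends of protein-coding genes where PRDM16 was called as bound in both wild-type (WT) cortex libraries and in neither conditional knockout (cKO) library. There were 518 of them, which is 5.61% of the 9232 regions with that pattern of calls anywhere in the genome. A region was the union of overlapping peaks (1 bp or more) of the 2 WT lists. Its summit, the mean of the points of highest signal in the 2 lists, had to lie no farther than 1 kb from an annotated end of a protein-coding gene. The members were thus chosen by the peak calls of all 4 lists and by summit position, and the absence of a cKO call at these regions is the rule and not a result. The signal was chromatin immunoprecipitation followed by sequencing (ChIP-seq) of whole cortex lysate at E15.5, with 2 ChIP libraries per genotype. The WT embryos carried Prdm16 flox/flox alleles and no Cre. The cKO embryos carried the same floxed alleles with Emx1Ires-Cre, which is expressed from the Emx1 locus and recombines in the dorsal telencephalic lineage. Cells of other origins in a whole cortex lysate, such as vessels, microglia and interneurons, keep unrecombined Prdm16 alleles in that design. Peak lists measure neither the Prdm16 transcript nor tissue markers, so neither the loss of the protein nor the tissue could be checked here. Nothing in the labels says whether the replicates came from separate embryos or litters. A p-value over libraries then measures only the spread between these libraries, which may be technical.

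PRDM16 is a zinc-finger transcription factor with a PR domain, best known from brown fat and, in the developing cortex, from radial glia, the stem cells that give rise to neurons. It acts with corepressors and coactivators and often sits at distal enhancers rather than at promoters. A promoter surrounds the start of a gene, where RNA polymerase II is loaded, and many vertebrate promoters lie in CpG islands, stretches rich in the dinucleotide CG. The far end of a gene, where transcription stops, has no such role in initiation.

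A selection of the promoters under these summits are printed to show how unlike each other they are in sequence, from a promoter with 3 CG steps to one with 29. Each is the RefSeq promoter window of GRCm38.p6 (the mm10 assembly), 250 bases before to 50 after the start, written 5′ to 3′ on the gene's strand with every CG step in capitals. They are the 3 promoter windows with the highest fold enrichment, followed by 3 from the gene lists below, chosen after their sequences were seen for their range of CG content. Fabp7, whose product carries fatty acids in radial glia, lies at chr10:57784673-57784972 on the + strand. Dohh, whose product hydroxylates the translation factor eIF5A, lies at chr10:81384184-81384483 on the + strand. Rbm39, which encodes a splicing factor, lies at chr2:156180189-156180488 on the - strand. Neurog2, the proneural factor of cortical excitatory neurons, lies at chr3:127632886-127633185 on the + strand. Prdm16 itself lies at chr4:154636824-154637123 on the - strand. Neurod6, a factor of young excitatory neurons, lies at chr6:55681214-55681513 on the - strand.
Fabp7: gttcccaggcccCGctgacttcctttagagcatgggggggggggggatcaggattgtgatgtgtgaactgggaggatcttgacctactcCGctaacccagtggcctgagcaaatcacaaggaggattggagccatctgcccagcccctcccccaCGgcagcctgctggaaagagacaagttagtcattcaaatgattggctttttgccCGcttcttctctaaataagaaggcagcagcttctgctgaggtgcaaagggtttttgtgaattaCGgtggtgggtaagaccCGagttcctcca
Dohh: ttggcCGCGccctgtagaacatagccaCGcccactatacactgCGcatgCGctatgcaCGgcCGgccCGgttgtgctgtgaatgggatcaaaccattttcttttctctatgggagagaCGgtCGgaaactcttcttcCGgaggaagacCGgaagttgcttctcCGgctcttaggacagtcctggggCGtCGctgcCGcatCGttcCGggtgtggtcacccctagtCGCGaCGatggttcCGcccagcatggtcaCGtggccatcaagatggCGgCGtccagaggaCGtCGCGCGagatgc
Rbm39: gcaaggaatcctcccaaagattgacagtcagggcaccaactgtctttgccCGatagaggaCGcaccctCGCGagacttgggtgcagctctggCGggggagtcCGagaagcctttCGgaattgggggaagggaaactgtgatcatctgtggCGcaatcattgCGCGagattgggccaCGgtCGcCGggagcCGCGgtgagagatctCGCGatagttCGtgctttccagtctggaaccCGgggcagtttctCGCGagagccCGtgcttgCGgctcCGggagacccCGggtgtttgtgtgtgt
Neurog2: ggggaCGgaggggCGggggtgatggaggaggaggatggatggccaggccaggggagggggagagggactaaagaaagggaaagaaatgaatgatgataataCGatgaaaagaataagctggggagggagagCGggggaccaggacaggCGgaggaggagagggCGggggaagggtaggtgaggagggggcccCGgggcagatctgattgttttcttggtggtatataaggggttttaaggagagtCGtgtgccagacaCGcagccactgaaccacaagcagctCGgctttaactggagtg
Prdm16: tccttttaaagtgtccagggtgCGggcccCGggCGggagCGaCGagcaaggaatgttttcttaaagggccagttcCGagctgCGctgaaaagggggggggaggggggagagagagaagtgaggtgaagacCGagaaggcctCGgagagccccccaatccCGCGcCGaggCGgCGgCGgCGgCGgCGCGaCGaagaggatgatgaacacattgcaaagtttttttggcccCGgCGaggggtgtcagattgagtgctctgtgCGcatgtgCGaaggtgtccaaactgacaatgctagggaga
Neurod6: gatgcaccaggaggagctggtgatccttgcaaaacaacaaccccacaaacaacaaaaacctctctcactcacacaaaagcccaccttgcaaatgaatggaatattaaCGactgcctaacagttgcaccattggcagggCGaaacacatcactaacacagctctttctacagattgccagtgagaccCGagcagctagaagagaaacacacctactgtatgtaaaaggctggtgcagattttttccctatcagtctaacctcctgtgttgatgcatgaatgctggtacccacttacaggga

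The Fabp7 window held 6 CG steps, and the ratio of observed CG steps to those expected from its C and G content was 0.276. In Neurod6 there were 3 steps and a ratio of 0.192. The Dohh window held 29 steps with a ratio of 1.06, Rbm39 held 25 with a ratio of 0.928, and Prdm16 held 24 with a ratio of 0.939. Neurog2 lay between them, with 10 steps and a ratio of 0.570. Both a neural promoter poor in CG and broadly used promoters dense in CG thus carried a WT-only summit. The summit lay 135.5 bp before the start in Fabp7, 81.0 bp before it in Dohh and 233.5 bp before it in Rbm39. It lay at -196.5 bp from the listed start in Neurog2, and 25.5 and 44.5 bp after it in Prdm16 and Neurod6. These distances are from the start of the printed window. From the annotated gene end that the 1 kb rule uses, the summit lay 512.5 bp inside Prdm16 and 206.5 bp inside Neurog2. The Fabp7 window spelled CATCTG, 1 form of the E-box bound by proneural factors, and the Dohh window held the letters listed below for ETS, SP, NRF1 and YY1 factors. These are matches of letters and not binding sites.

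At gene ends a larger part of the WT binding was also called in the cKO than elsewhere. Of all 10090 regions of both WT lists, 91.5% overlapped no cKO peak. Of the 710 that lay at gene ends, 73.0% did, and the other 192 overlapped a peak of at least 1 cKO list (kept regions below). A further 354 gene-end regions were in both cKO lists and in no WT list (cKO-only below). A share over regions has no replicates, so these differences were not tested and are given as counts. A cKO peak lay within 1 kb of 50 of the 518 members (9.65%) without overlapping them, against 101 of the 8714 other WT-only regions (1.16%).

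The share at gene ends can also be compared per library, without the WT-only rule. WT replicates 1 and 2 placed 10.2% and 10.05% of their 13852 and 26652 regions at gene ends. The cKO replicates placed 40.0% and 40.3% of their 4553 and 3088 regions there. The 2 genotypes did not overlap, with means of 10.1% ± 0.0722 and 40.2% ± 0.174 (SD, n = 2 each) and a difference of -30.1 percentage points. An exact two-sided permutation test over the 4 libraries gave p = 0.33, the smallest value that 2 against 2 libraries allow. In absolute numbers the order was different. The WT lists held 1406 and 2678 gene-end regions and the cKO lists 1823 and 1244, so WT replicate 1 lay below cKO replicate 1. The names of the deposited peaks carry 1 library identifier for both WT libraries and another for both cKO libraries, so genotype and that identifier cannot be told apart.

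**Figure D1:**
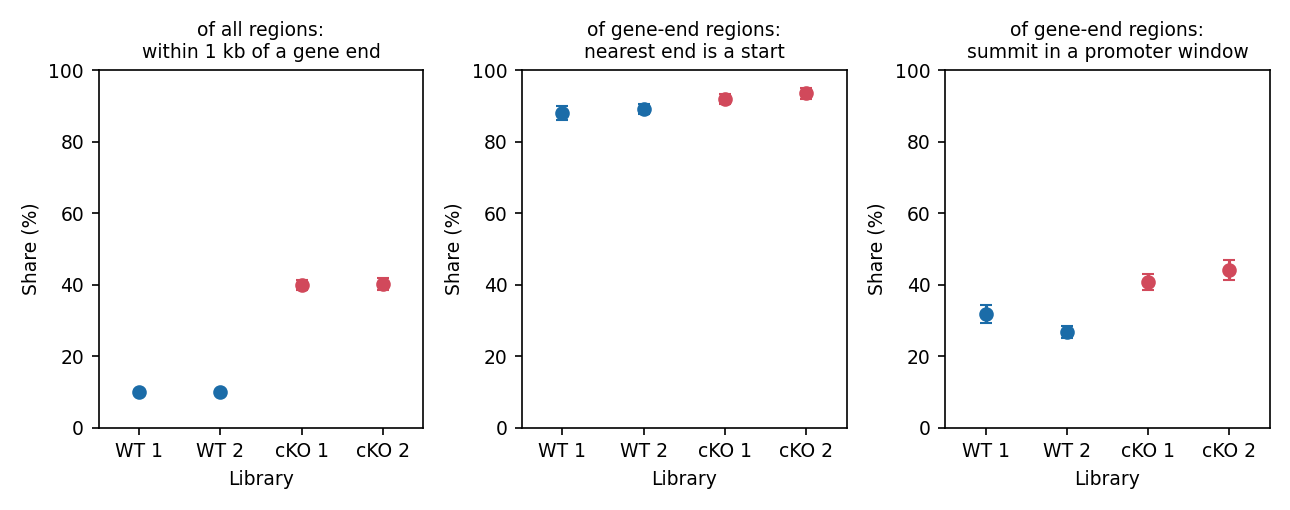
Shares in the 4 libraries (WT 1, WT 2, cKO 1, cKO 2 on the horizontal axis, percent on the vertical axis), with Wilson 95% intervals as bars. Left, regions of each list with a summit within 1 kb of a protein-coding gene end, where the WT libraries sit at 10.2% and 10.05% and the cKO libraries at 40.0% and 40.3%. The middle panel gives gene-end regions of known strand whose nearest end is the start, and the right panel gene-end summits inside a RefSeq promoter window.

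Most members lay at the start of a gene, but less closely and less often than the kept and cKO-only regions did. Strand, which tells the start from the far end, is listed for the nearest gene of 406 members. For 336 of these the nearest end was the start (82.8%, Wilson 95% interval 78.8 to 86.1), and for 70 the far end. The remaining 112 have no listed strand. Among kept regions the start share was 92.0% (138 of 150, 86.5 to 95.4), and among cKO-only regions 93.6% (249 of 266, 90.0 to 96.0). Members could not overlap a cKO peak and kept regions had to, so the rule itself sets these classes and their shares are descriptions. Intervals cover counting error only, and regions are not replicates. By library the start share was 88.1% and 89.2% in WT and 92.0% and 93.6% in cKO, a difference of -4.14 percentage points (exact two-sided permutation test, p = 0.33). With lists of equal length this difference was -18.8 percentage points. Both WT values lay below both cKO values.

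Around starts the members were spread out, whereas kept and cKO-only summits were packed onto the start itself. The median distance of the summit from the start was 266.25 bp for members, 103.25 bp for kept regions and 111.5 bp for cKO-only regions. A summit within 100 bp of the start was seen for 74 of 336 members (22.0%, 17.9 to 26.8), for 68 of 138 kept regions (49.3%, 41.1 to 57.5) and for 116 of 249 cKO-only regions (46.6%, 40.5 to 52.8). Members lay on both sides of the start, with 175 of 336 (52.1%) upstream. The 1 kb rule sets the outer limit of these distances for all 3 classes alike. The start here is the annotated gene end, which for some genes is not the start of a promoter window. At Hdac4 the summit lay at -133.5 bp from the gene end and at -15494.5 bp from the nearest window start. The part of this in the spread was not tested. Of the 70 members at far ends, 47 (67.1%) lay beyond the end and 23 inside the gene. The summit fell within a RefSeq promoter window for 111 of the 498 members outside chromosome 18 (22.3%, 18.9 to 26.1), for 80 of 185 kept regions (43.2%, 36.3 to 50.4) and for 152 of 342 cKO-only regions (44.4%, 39.3 to 49.7). The table of windows has no entries for chromosome 18. In the libraries this share was 31.8% and 26.7% in WT and 40.8% and 44.2% in cKO, a difference of -13.2 percentage points (exact two-sided permutation test, p = 0.33).

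**Figure D2:**
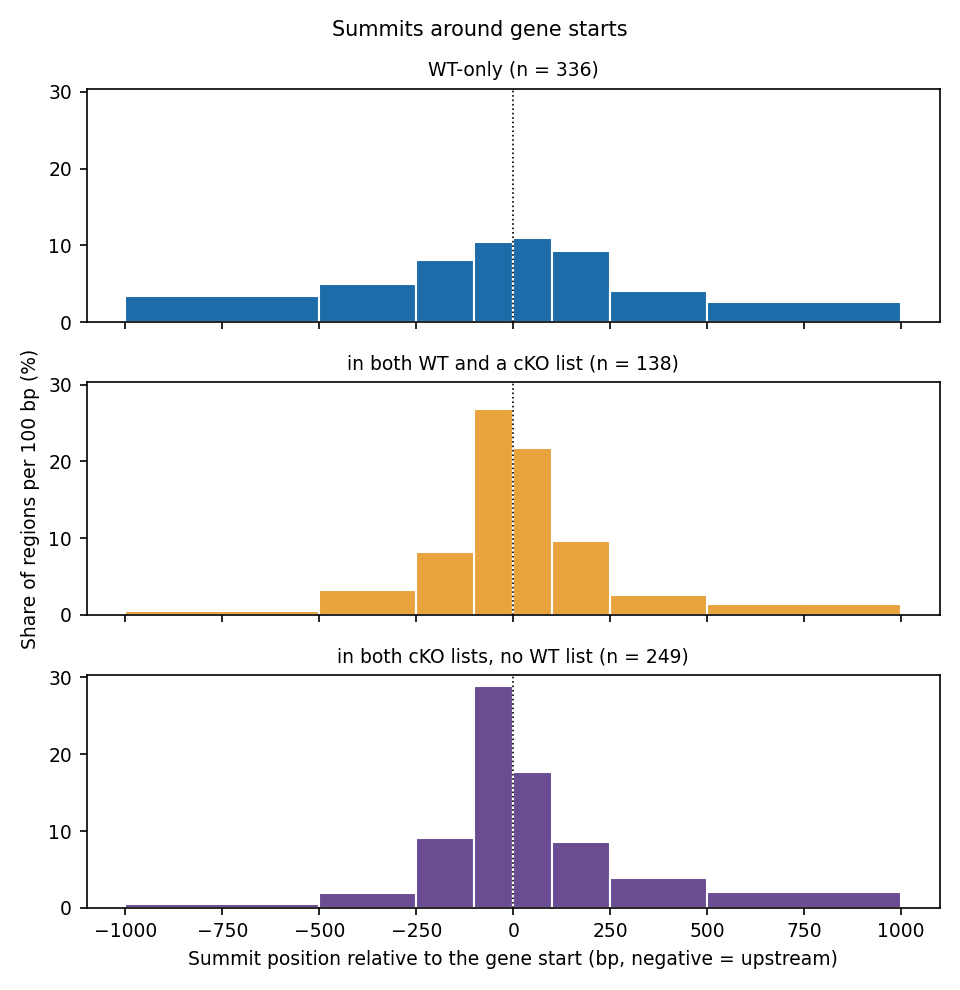
Position of the summit relative to the gene start (bp, negative upstream) as the share of regions per 100 bp, for the 336 members, 138 kept regions and 249 cKO-only regions whose nearest end is a start. The members reach about the same height from -100 to 250 bp and extend to the 1 kb limit, while the other 2 classes peak within 100 bp of the start, where 49.3% and 46.6% of them lie.

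A member was near more than 1 gene in 46 cases (8.88%). In 19 of these the summit lay within 1 kb of a pair of starts, in 9 of a start and a far end, and in 5 of a pair of far ends, with a strand not listed in 13. The limit of 1 kb was passed narrowly at both sides. Just inside lay the regions of Meis2 (984 bp from the nearest end), Prelid3a (998.5 bp) and Mvd (999.5 bp). Just outside lay those of Cfap100 (1002.5 bp), Sall2 (1003 bp) and Trub1 (1003.5 bp). Their mean folds, 4.45 to 9.82 inside and 5.09 to 7.27 outside, overlapped.

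Binding at gene ends was weaker than the rest of WT-only binding by the authors' fold enrichment. That fold is the signal at the summit over the local background. Which input library, if any, supplied this background is not given in the labels. The fold ranks peaks within a list and is not a measure of change between libraries. Among members it ranged from 3.28 to 84.7 in WT replicate 1, with a median of 6.16, and from 2.65 to 83.0 in WT replicate 2, with a median of 6.11. The other WT-only regions had medians of 7.01 and 8.12. A mean fold of at least 10 was reached by 61 members (11.8%) and by 27.9% of the other WT-only regions. Member regions had a median width of 409.5 bp (188 to 1863) against 556 bp elsewhere. Fold chose no member directly, yet calling in all lists depends on it, so these values are descriptions. Many members also lay near the floor of the cKO lists. The 5th percentile of fold was 3.29 in cKO replicate 1 and 3.37 in cKO replicate 2. The lower WT fold of a member reached 3.37 in 499 of 518 (96.3%), but when divided by 2 in only 130 (25.1%). The part of this in the missing cKO calls was not tested. The replicates differed by more than 1.5 times in 141 members (27.2%), and the fold was higher in replicate 2 in 258 of 518. Across the 518 regions, which share 2 libraries, Spearman's rho between the replicates' folds was 0.441, against 0.615 across the other WT-only regions.

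The lower the fold of WT-only regions, the larger was the part of them at gene ends. When the 9232 WT-only regions were ordered by mean fold and divided into 5 groups of equal size, gene ends held 10.7% of the lowest group, 6.93%, 4.39% and 3.74% of the next groups, and 2.33% of the highest. The start share fell along the same order, from 90.8% of gene-end regions of known strand in the lowest group through 84.6%, 81.3% and 73.7% to 55.2% in the highest. The highest group held 43 members, 16 at starts, 13 at far ends and 14 of unlisted strand. Members at far ends had a median mean fold of 7.62, equal to that of WT-only regions away from gene ends (7.62), and members at starts one of 6.04.

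Reads per library are not given in peak lists, so the depth behind these folds is unknown.

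**Figure D3:**
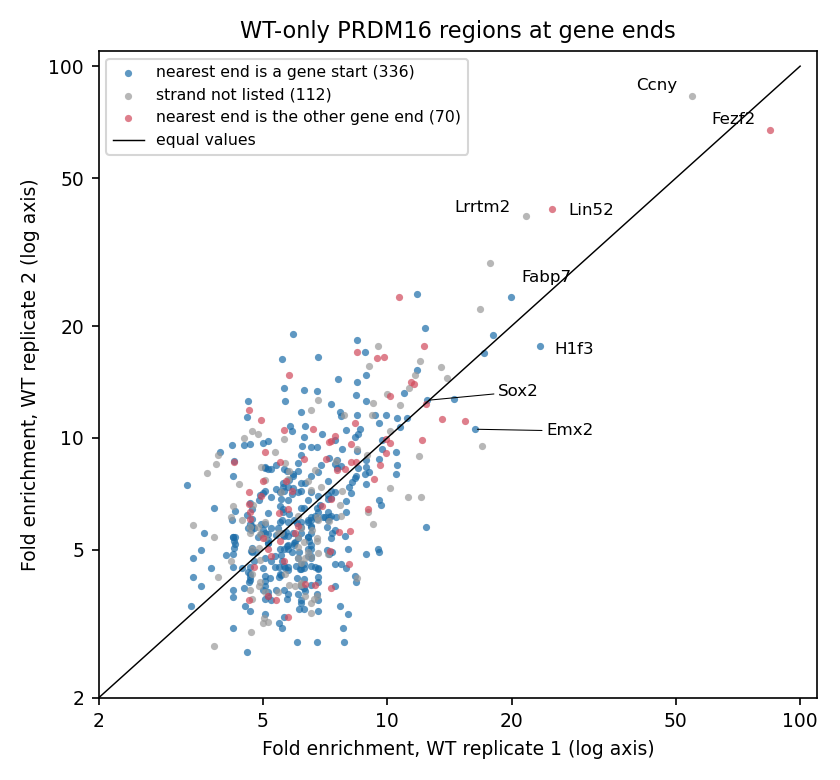
Fold enrichment of each of the 518 members in WT replicate 1 (horizontal, log axis) and WT replicate 2 (vertical, log axis), coloured by the nearest gene end, with the line of equal values. Most points lie between 3 and 12 in both replicates, and Fezf2, Ccny, Lin52 and Lrrtm2 stand apart above 20 in both.

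The strongest member lay beyond the far end of Fezf2, the transcription factor that specifies corticospinal and other deep-layer projection neurons. Its fold was 84.7 in WT replicate 1 and 67.2 in WT replicate 2 (75.9 ± 12.3, SD, n = 2), at chr14:12337183-12338970, with the summit 880.0 bp beyond the end. Both WT lists also held a peak at the start of Fezf2, with folds of 6.56 and 5.57. These joined a longer region whose strongest summits lay more than 1 kb inside the gene, so it is no member. Neither cKO list held a peak at an end of Fezf2. The next member in order was at Ccny, which encodes the membrane-bound cyclin Y, with 54.7 and 83.0 at chr18:9450105-9450538. Lin52, a subunit of the DREAM and MuvB cell cycle complexes, followed with 25.03 and 41.4 beyond its far end. These 3 were above 20 in both replicates, as was Lrrtm2, a synaptic adhesion protein, with 21.6 and 39.6. Lgals12, which encodes a galectin of fat cells, had 17.7 and 29.5.

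Fabp7 was sixth, and the highest member with its nearest end known to be a start. Its fold was 19.9 in WT replicate 1 and 23.9 in WT replicate 2 (21.9 ± 2.86, SD, n = 2), in the widest member region of all, 1863 bp. The linker histone gene H1f3 had 23.4 and 17.7. Dohh had 18.01 and 18.9. Genes of radial glia biology and of metabolism stood side by side here. Itgb8, the integrin beta subunit that activates TGF-beta in neuroepithelium, had 11.8 and 24.3. Psat1, an enzyme of serine synthesis, had 17.1 and 16.9, and Rbm39 had 12.4 and 19.8. Ncam1, the neural cell adhesion molecule, had 12.03 and 16.1. The replicates were within 10% of each other at Psat1 and Dohh, and more than 2 times apart at Itgb8.

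The rest of the 20 strongest members included 2 whose nearest gene is known from other tissues, both at far ends. Gnat2, the cone photoreceptor transducin, had 10.7 and 23.9, and Ky, a protein of skeletal muscle, had 12.2 and 17.7. The nearest gene names a place and does not show which gene the region acts on. Fzd8, a Wnt receptor of the dorsal telencephalon, had 13.5 and 15.6. Fbxw8, a ubiquitin ligase subunit, had 13.9 and 14.5, and the membrane protein gene Tmem184c had 14.5 and 12.7. Zfp41, with cKO peaks 548 and 465 bp away, had 9.50 and 17.6, and the myosin phosphatase subunit gene Ppp1r12b had 11.8 and 15.3. The 5 weakest members were those of Mia3, Gm10461, Soga3, Pbld2 and Zhx2, with mean folds from 3.77 down to 3.28. Of these 5, Zhx2 had 3.80 in replicate 1 and 2.75 in replicate 2.

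Of 21887 protein-coding genes, 544 (2.49%) had a member at an end, and that share is the background for the gene lists that follow. A kept region lay at an end of 215 genes (0.982%) and a cKO-only region at an end of 414 (1.89%), so a short list would hold few of either. Genes of the cortical lineage exceeded the background of 2.49% in each of the 5 lists of progenitors and neurons. This was not particular to gene ends. A WT-only region anywhere was assigned to 29 of 32 dorsal progenitor factors, 19 of 24 radial glia genes and 15 of 20 proneural genes. The same held for 13 of 16 deep-layer and 15 of 15 upper-layer genes, against 3588 of all 21887 genes. No test was made of these counts, since the members and lists were chosen with results of these data known. Among 32 transcription factor genes of dorsal progenitors, 10 had a member (31.2%). In this list 1 gene, Hes6, had a kept region at an end and none had a cKO-only region. Emx2, which patterns the dorsal telencephalon, had folds of 16.3 and 10.6 with the summit 64.5 bp inside the gene. Sox2, the factor that maintains neural stem cells, had 12.5 and 12.6 with the summit 74.0 bp inside. Nfib, a nuclear factor I gene of the switch towards glia, had 9.04 and 15.6. Otx1, a forebrain patterning factor, had 9.22 and 12.4, with cKO peaks 460 and 272 bp away in the cKO lists. These 4 were the highest of the list.

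The other 6 dorsal progenitor genes had lower mean folds, most of them higher in replicate 1. Id4, an inhibitor of basic helix-loop-helix factors, had 10.6 and 8.44. Dmrta2 had 2 members, 1 at its far end with 8.17 and 9.61 and 1 at its start with 6.75 and 3.81. Nfix had 7.28 and 4.98 in a region that also lies near Lyl1, Rfx4 had 6.67 and 4.49, and Zbtb20 had 6.33 and 3.89. Replicate 1 was the higher at each of these except the far end of Dmrta2. At the promoter of Prdm16 itself the fold was 9.51 in WT replicate 1 and 5.01 in WT replicate 2 (7.26 ± 3.18, SD, n = 2). A second peak was listed near this start in WT replicate 1 alone, with 6.27. Neither cKO list held a summit within 1 kb of an end of Prdm16, but both held a peak near the member, 995 and 820 bp away.

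The Prdm16 promoter is the only member among the 15 genes of the PRDM family. Pdzrn3, a ubiquitin ligase of neuronal migration, shows another pattern of calls and is not a member. Its gene-end region was kept, with folds of 24.8 and 30.7 in WT and 12.2 and 9.25 in cKO. These folds come from separate lists and are not a ratio between genotypes.

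Structural and transport genes of radial glia had a member in 5 of 24 cases (20.8%), with all 4 of known strand at starts. Besides Fabp7, these were Tnc, an extracellular matrix protein, with 6.80 and 6.99, and Nes, which encodes the intermediate filament nestin, with 7.32 and 6.17. Vim, which encodes vimentin, had 7.47 and 5.64, and the adhesion gene Cdh2 had 6.07 and 6.15. Fabp7 was thus about 3 times the next gene of the list in mean fold (21.9 against 6.89). Bcan had a kept region and Cd63 a cKO-only one.

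Proneural and intermediate progenitor genes had a member in 4 of 20 cases (20%), and each of these 4 encodes a transcription factor of the excitatory lineage. Neurog2 had 2 members at its start, with 8.90 and 8.34 at the nearer and 5.96 and 5.15 at the other. Neurod6 had 1 at each end, with 5.07 and 8.36 at the start and 5.70 and 7.65 beyond the far end. Eomes, the marker of intermediate progenitors, had 5.76 and 6.82, and Neurod2 had 7.47 and 4.58. Gadd45g and Elavl4 of the same list had kept regions, with mean folds of 4.92 and 7.48.

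Genes of deep-layer neurons had a member in 5 of 16 cases (31.2%). Apart from Fezf2 their folds were close to the median of all members. Tle4, a corepressor, had 4.20 and 9.55, and Foxp2 had 7.23 and 5.98. Zfpm2 had 5.54 and 7.14, and Etv1, an ETS factor of layer 5 neurons, had 5.98 and 5.24. Upper-layer genes had a member in 4 of 15 cases (26.7%). These were Kitl, the ligand of the receptor Kit, with 6.55 and 5.01, Bhlhe22 with 6.55 and 4.78, Pou3f2 with 5.07 and 5.88, and Rorb with 4.20 and 6.005. Both cKO lists held a peak close to the Pou3f2 member, 34 and 75 bp away. Cux2 of the upper-layer list had a cKO-only region.

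Among signalling genes, 6 of 30 Wnt pathway genes had a member (20%). A receptor, a ligand, the central effector and 3 nuclear partners made up these 6. The receptor Fzd8 and the ligand Wnt8b, made in the cortical hem, had the highest values. For Wnt8b these were 9.81 and 16.5, beyond its far end. Tle3, a corepressor, had 5.68 and 5.59, Ctnnb1, which encodes beta-catenin, had 5.63 and 5.43, and the DNA-binding partner Tcf7l2 had 5.14 and 5.22. Fzd8 also had a cKO-only region at an end, and the nearest cKO peaks lay 2216 and 2214 bp from its member. The sixth gene, Tle4, is shared with the deep-layer list. The Wnt count was 2 with a limit of 500 bp and 2 with lists of equal length. Over all protein-coding genes 369 and 48 had a member in these settings. In the Notch list 1 of 24 genes (4.17%) had a member, the coactivator Maml2 with 6.80 and 4.47. In the TGF-beta and BMP list 2 of 34 had one (5.88%), namely Id4 and the receptor gene Bmpr1b with 8.36 and 7.82.

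Migration and axon guidance genes had a member in 7 of 44 cases (15.9%). The ephrin Efnb1 had 10.1 and 12.9 near its far end. Of its receptors' family, Epha3 had 6.27 and 13.4 and Epha5 had 7.18 and 7.65. The semaphorin Sema6a had 3.85 and 8.53, and the netrin receptor Dcc had 4.18 and 6.14. Flrt3, an adhesion protein of migrating neurons, had 4.24 and 5.41 with the summit 10.5 bp from the start, and the neuropilin Nrp2, also bound at its start, had 4.64 and 4.14. Epha3 and Sema6a were more than 2 times higher in replicate 2.

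Regulators of chromatin had a member in 3 of 54 cases (5.56%), namely Arid1a, a subunit of the BAF remodelling complex, with 12.4 and 5.76, Hdac4 with 6.22 and 9.50, and the corepressor Ctbp2 with 7.71 and 6.17. Among 30 cell cycle genes 1 had a member (3.33%), the brake Rb1 with 6.07 and 4.75. None of 46 splicing and RNA-binding genes had one. The list labelled Kruppel-type zinc-finger genes was drawn by symbol, Zfp followed by a number, and not by protein type. Of its 367 genes 9 had a member (2.45%), close to the background of 2.49%. These were Zfp41, Zfp521 with 2 members, Zfp536, Zfp609, Zfp811, Zfp365, Zfp62, Zfp710 and Zfp553, with mean folds from 13.6 down to 4.16. In 1 cKO list a peak lay within 1 kb of the members of Zfp536 and Zfp62, as it did for Dcc and Eef1a1 of the other lists. In the same list 5 genes had a kept region and 11 a cKO-only one.

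Genes of protein synthesis and respiration had few members, but at the background of 2.49% lists of this length would also hold only a few. None of 83 cytosolic ribosomal protein genes had a member, while 3 had a kept and 5 a cKO-only region. Over all protein-coding genes the shares with a kept and with a cKO-only region were 0.982% and 1.89%. Among 96 respiratory chain genes 1 had a member (1.04%), Ndufv1 with 7.15 and 5.75, while 5 had a kept and 3 a cKO-only region. The ribosomal count depended on which libraries were required. It was 10 without WT replicate 1, 3 without WT replicate 2 and 2 without cKO replicate 1. Over all protein-coding genes 2104, 1060 and 605 had a member in these settings. Of 20 ubiquitous genes 2 had a member (10%), the elongation factor gene Eef1a1 with 6.27 and 4.18 and the chaperone gene Hsp90ab1 with 3.89 and 4.24.

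Lists for other cells and tissues had 1 gene with a member or none. None of 10 Cajal-Retzius, 18 astrocyte and oligodendrocyte, 18 endothelial and mural, 15 microglia and 19 liver genes had one. Neither did any of 39 Hox genes or 1106 olfactory receptor genes. The interneuron and ventral list had 1 of 20 (5%), Gsx1 with 5.39 and 3.91, and the choroid plexus and hem list had 1 of 16 (6.25%), Wnt8b. WT-only regions anywhere were not confined to the cortical lists. They were assigned to 8 of 20 interneuron and ventral, 5 of 10 Cajal-Retzius and 7 of 16 choroid plexus and hem genes. For astrocyte and oligodendrocyte genes this was 7 of 18, for endothelial and mural 1 of 18, for microglia 1 of 15 and for liver 1 of 19. Over all protein-coding genes it was 3588 of 21887. At a background of 2.49% a list of 10 to 20 genes would hold less than 1 gene. An empty short list, or 1 gene in it, thus carries little information. That limit does not apply to the long list of 1106 olfactory receptor genes. However, 0 of these genes had a kept region, 0 had a cKO-only region and 3 had a WT-only region anywhere. Their absence was thus not particular to the members.

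**Figure D4:**
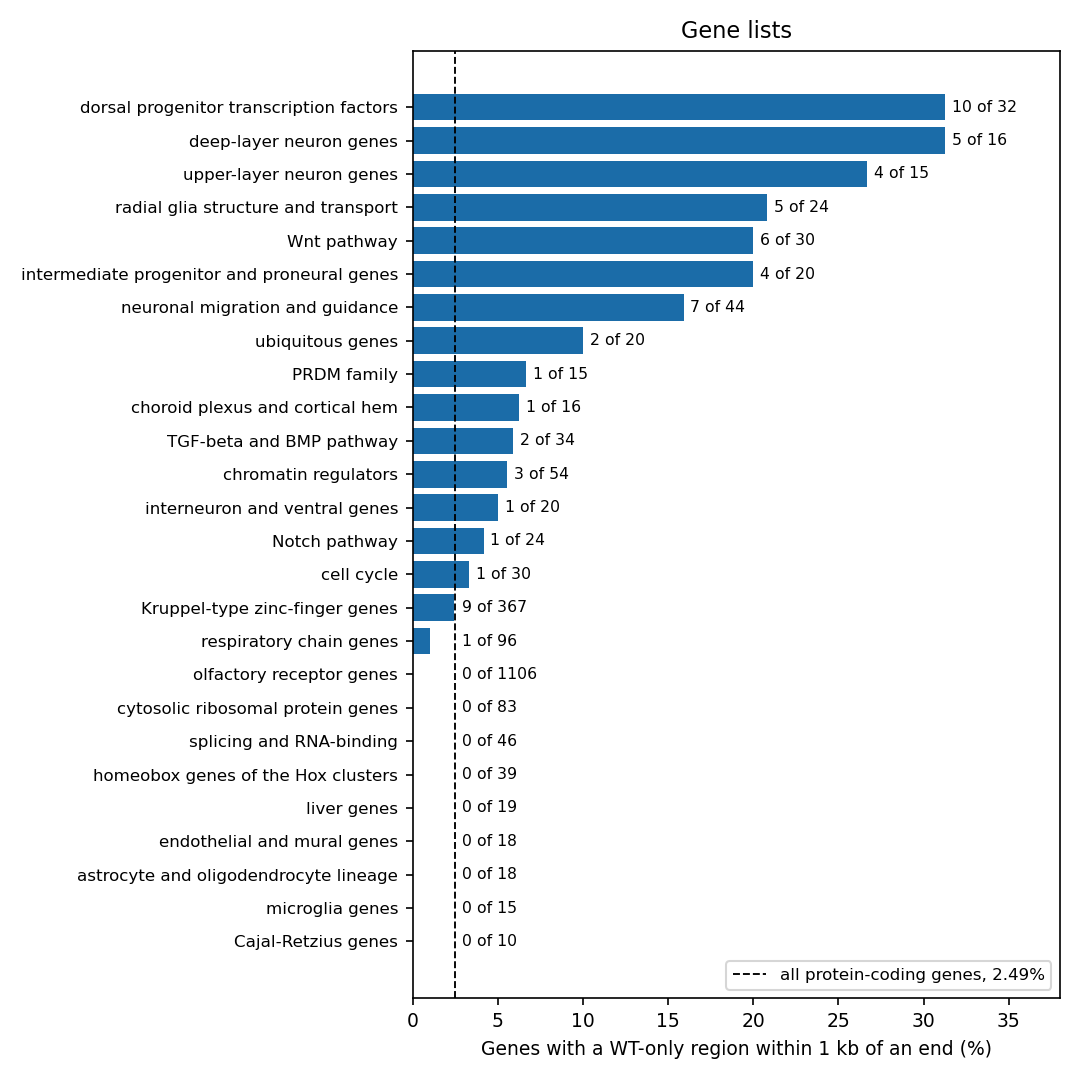
Percent of the genes of each of 26 lists with a member within 1 kb of an end, with the counts beside the bars and the share over all 21887 protein-coding genes (2.49%) as a dashed line. The lists of dorsal progenitor factors and of deep-layer neurons reach 31.2%, and 9 lists have no member.

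Some genes carried several members. Ankrd40 had 3, all within 1 kb of its start, with folds of 7.56 and 8.29, 6.54 and 7.91, and 6.05 and 4.21. A further 18 genes had 2 each, among them Copz1, a coat protein gene, and Csmd2. Of the 544 genes, 210 (38.6%) had 2 or more WT-only regions assigned to them when regions within 100 kb were counted, against 1562 of the 3588 genes with any WT-only region (43.5%). Sox2 had 15, Nfib 14 and Prdm16 11. Of the 544, 4 (0.735%) also had a kept region at an end and 8 (1.47%) a cKO-only one, near the shares over all genes.

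The promoters under member summits were rich in CG, though less so than those under kept and cKO-only summits. In the 111 windows with a member summit the median GC content was 60.3% and the median ratio of observed to expected CG steps 0.742. The 80 windows with a kept summit had 62.7% and 0.819, and the 152 with a cKO-only summit 67.0% and 0.864. Over the 21263 windows of protein-coding genes the medians were 56.3% and 0.567. A window was CG-rich (GC above 50% and ratio above 0.6) in 72 of 111 members (64.9%), in 80.0% of kept windows, in 91.4% of cKO-only windows and in 44.9% of coding windows. Members thus lay between coding promoters at large and the other classes. Sequencing and peak calling can depend on base composition, and the part of that in these values was not tested.

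**Figure D5:**
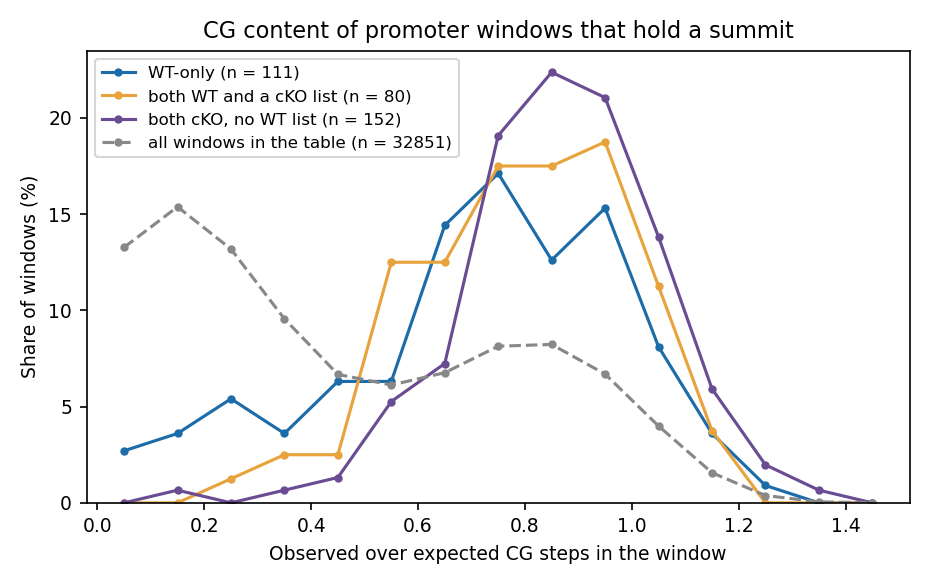
Ratio of observed to expected CG steps (horizontal axis) in RefSeq promoter windows that hold a summit, as percent of the windows of each class (vertical axis), for 111 member, 80 kept and 152 cKO-only windows and all 32851 windows of the table. Member windows have a tail below 0.5 that the cKO-only windows nearly lack.

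Words of bases known from promoter-binding factors were counted in the same windows on both strands, and 27 motifs were searched. The share of coding windows with the same letters is the reference. GGGCGG, read by SP factors, was in 62.2% of member, 66.2% of kept, 75% of cKO-only and 46.2% of coding windows. CCGGAAG, read by ETS factors, was in 10.8%, 17.5%, 27.0% and 11.6%, and GCGCATGC, read by NRF1, in 4.50%, 5%, 11.2% and 3.52%. AAGATGGC, read by YY1, was in 5.41%, 7.5%, 5.26% and 3.05%. For the words of SP, ETS and NRF1 factors members were nearest to coding promoters at large and cKO-only windows farthest. The order was turned for some other words. CATCTG, an E-box, was in 22.5% of member, 13.8% of kept, 11.2% of cKO-only and 14.6% of coding windows. CAGCTG, another E-box, went the other way, with 9.91%, 18.75%, 11.8% and 15.6%. GTTGCC, part of the site of RFX factors, was in 22.5%, 12.5%, 12.5% and 12.6%. TTGGCA, a nuclear factor I half-site, was in 18.9%, 11.2%, 6.58% and 13.1%. GATAAG, part of the site of the first zinc-finger domain of PRDM3 and PRDM16, was in 5.41%, 5%, 3.29% and 6.92%. Both E-boxes are also counted in the general form CANNTG, found in 64.0% of member and 69.0% of coding windows. ATGCAAAT, read by POU factors, was in 5.41%, 1.25%, 0% and 1.66%, and GGAATG, read by TEAD factors, in 18.9%, 7.5%, 11.2% and 13.6%. TGANTCA, read by AP1, was rarest in members, with 1.80%, 2.5%, 3.95% and 6.99%. The remaining motifs of the 27 are not printed. With 111 windows a difference of a few percent rests on a few windows. Within 50 bp of the summit CATCTG was in 9.91% of member, 5% of kept and 4.61% of cKO-only windows, and GATAAG in 4.50%, 0% and 0.658%. GTTGCC was there in 3.60%, 3.75% and 1.32%, and TTGGCA in 5.41%, 5% and 1.32%. The higher share of ATGCAAAT in members was not seen at this distance, with 0%, 0% and 0%. GGAATG was there in 1.80%, 1.25% and 4.61%, so cKO-only windows had the most. GGGCGG was there in 25.2%, 23.75% and 43.4%, and CCGGAAG in 2.70%, 1.25% and 11.8%. For both of these words members lay above kept windows near the summit and below them in the whole window. Coding windows at large have no summit and so give no reference for these shares.

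The size of the class depended on the lists and less on the other choices. For lists of equal length, each was reduced to the 3088 peaks with the smallest p-values, the length of the shortest list. This left 49 members, 2.58% of WT-only regions, and 53.1% of the members of known strand lay at starts. Without WT replicate 1 there were 2171 members and without WT replicate 2 there were 1057.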

How the data were processed

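The build was mm10, and the tools MACS2 2.1.1, Bowtie2 2.2.8, cutadapt and FastQC, per the submitters' processing notes. Their settings are not given in the sources used here. The authors deposited 1 peak list per ChIP library and pooled no replicates in it. The deposited strength of a peak is a fold enrichment over the local background, a ratio. The deposited significance is given as −log10 of the p-value and of the q-value, and the deposited score column is 10 times the −log10 q-value cut to a whole number. The deposited summit is a distance in bases from the peak start. Data of the 4 input libraries and of the histone marks that the series names were not analysed here.

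Lines outside chromosomes 1 to 19, X and Y were left out, 12, 14, 37 and 19 in WT replicates 1 and 2 and cKO replicates 1 and 2. Overlapping peaks within a list were merged. Gene ends came from a RefSeq table of GRCm38.p6 with 21887 protein-coding genes. Strand was taken from the RefSeq promoter table, which covers 17492 of them (79.9%). Coordinates count from 1. Exons, introns and UTRs were not separated. Analyses used Python 3.11.15, pandas 2.3.3, numpy 2.4.6 and scipy 1.17.1, and the overlap and distance steps were tested on simulated data.

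Shares carry Wilson 95% intervals. Genotypes were compared only by exact two-sided permutation tests over libraries. The members and the 26 gene lists were chosen with earlier results of these data known. Genes were named by rule: the nearest genes of the 20 strongest and 5 weakest members, list genes with a member, Prdm16 and Pdzrn3, the 3 genes with most members, the 3 regions on each side of the distance limit, and, for sequences, promoters of such genes whose window holds the summit. Genes outside the rule were chosen after their values were seen. One of the strongest members is not reported here. Copz1 and Csmd2 share their number of members with 16 other genes and come first by name. 1 listed symbol, Lis1, was not found in the table. Alternatives tried were gene-end distances of 500 bp and 2 kb, a −log10 q of at least 3, an overlap of at least 50% of both intervals, the summit of the stronger replicate, lists of equal length, each replicate left out in turn, and a replicate block.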

Additional observations from a re-analysis of the deposited data

How the results depend on the processing

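Of 113 alternative values of the counts, shares, distances and differences between genotypes, 25 moved and 0 reversed. A count or median moved when it changed by over 1.5 times, and a share when it left its Wilson interval. The differences between genotypes were judged by direction alone, since no p could pass, and their sizes changed. With lists of equal length the gene-end difference was -34.4 and the start difference -18.8 percentage points. The gene-end difference was -26.4 at 500 bp and -33.7 at 2 kb. With lists of equal length there were 49 members at 48 genes, 2.58% of WT-only regions, with a start share of 53.1%, a promoter-window share of 17.8%, a median distance from the start of 158.5 bp and a median mean fold of 13.2. With a limit of 500 bp the share at gene ends was 3.80%, the start share 87.1%, the promoter-window share 31.25% and the median distance 171.75 bp. With 2 kb these were 7.94%, 75.5%, 16.7% and 424 bp. Leaving out 1 replicate at a time gave 539 to 2171 members, 567 to 2104 genes, a share at gene ends of 5.75% to 8.71%, a start share of 83.2% to 88.5%, a promoter-window share of 23.3% to 27.4%, and a median distance for kept regions of 92 to 176.5 bp. The largest counts came without WT replicate 1 and, with 1057 members, without WT replicate 2, since a region then needed a call in only 1 WT list. In every setting run, kept summits stayed nearer to the start than member summits.

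With the replicate block, pairing libraries by number, the differences in gene-end share were -29.9 and -30.2 percentage points (mean -30.1) and an exact sign-flip permutation test gave p = 0.5, the smallest that 2 pairs allow. The same pairing for the other shares, added after the data were seen, gave -3.87 and -4.41 for starts (mean -4.14) and -8.99 and -17.5 for promoter windows (mean -13.2). Nothing in the labels says that equal numbers share an origin. The mean over the pairs equals the unpaired difference, so the block could change no call.

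The number of dorsal progenitor genes with a member was 4 with lists of equal length. It was 17 without WT replicate 1 and 17 without WT replicate 2. For deep-layer genes it was 1 with lists of equal length, 0 at 500 bp and 9 without WT replicate 1. For upper-layer genes it was 0 with lists of equal length, 2 when at least 50% of both intervals had to overlap and 7 without WT replicate 1. For Wnt genes it was 2, 3 and 2 with lists of equal length, the overlap of 50% and 500 bp. The number over all 21887 protein-coding genes, 544 with the main settings, changed as well. It was 48 with lists of equal length, 369 at 500 bp and 400 with the overlap of 50%. Without WT replicate 1 it was 2104, and without WT replicate 2 it was 1060. The list counts are to be read beside these. The depth of the libraries is unknown, and list length stands between every count here and the number of bound sites.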

Other observations

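The replication-dependent and variant histone genes, a group picked after the members were seen, had a member at 9 of 97 genes (9.28%, against 2.49% of all protein-coding genes), in 8 regions. The strongest was at H1f3, with 23.4 and 17.7, and the next at H2bu2, with 8.86 and 17.1, and H4c9, with 6.80 and 16.5. H1f2, H3c6, H4c11 and the pair H1f4 and H2bc6 on chromosome 13, and H2az1 on chromosome 3, had mean folds of 4.45 to 6.68. Many histone genes are near-identical copies, so the placement of reads among them is uncertain.

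Of the 3 Myc genes, also picked after the values were seen, 2 had a member, against 2.49% of all protein-coding genes. Other families picked in the same way had one at 2 of 26 Klf and Sp, 2 of 24 Dusp and 1 of 6 Etv genes. Mycn had a member at its start with 5.78 and 6.23, and Myc had one at an end of unlisted strand with 5.44 and 3.86. Mycn also had a kept region, with 3.47 and 6.63, as did Mycl, with 5.14 and 4.76. The Klf6 gene had 2 members at its start, with 5.61 and 6.34 and with 6.27 and 4.59, and a peak of cKO replicate 1 lay 141 and 221 bp from them.

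Width did not follow fold at the top of the members. The region beyond Fezf2 was 1788 bp wide and that of Fabp7 1863 bp, whereas the region at Ccny, with the second highest fold, was 434 bp, and those of H1f3 and Dohh were 327 and 297 bp. Chromosome 3 held 46 members, 4.68 per 100 protein-coding genes, and the other chromosomes held 1.45 (X) to 3.91 (chromosome 18) per 100 genes, with 0 on Y.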
